A study of Mus musculus with 41 samples.

Results

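Paired receptors of myeloid cells come as inhibitory and activating relatives that share ligands and gene clusters. The 10 genes described here encode such receptors and their neighbours in function: Pirb, Pira2, Lilrb4a and Lilr4b of the PIR/LILR family, Cd300a and Cd300lf of the CD300 family, Sirpa, Cd200r1, and the SLAM family members Cd84 and Slamf7. They were chosen by gene symbol, with earlier results of these data known. All 10 are listed among the 55453 genes of each of the authors' 3 deposited tables and have an adjusted p-value in each.

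The tumours grew in the rectum of female C57BL6 mice from implanted MC38-luc cells, a luciferase-carrying derivative of the mouse colon carcinoma line MC38. Irradiated tumours received 5 Gy per fraction in 5 daily fractions on days 9 to 13, untreated tumours received none, and all were harvested on day 14. From each tumour, CD45+ CD11b+ cells were sorted as tumour-associated macrophages (TAM; Ly6C- Ly6G- F4/80+), inflammatory monocytes (Ly6C+ Ly6G-) or granulocytes (Ly6C+ Ly6G+). The libraries number 10 irradiated and 5 untreated for TAM, 9 irradiated and 5 untreated for inflammatory monocytes, and 7 irradiated and 5 untreated for granulocytes. Genotype, beyond the strain, and animal age are not in the labels. Untreated tumours carry other numbers than irradiated ones, so the tumours of a comparison are separate.

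The deposited values are comparisons of irradiated with untreated tumours within a subset. Each gene has a log2 fold change, shrunken towards 0 as far as the values show, and a Wald statistic, the effect before shrinkage in units of its standard error. The tables carry no value of a single library, so depth and the spread within a group are unknown, and the markers that define each gate cannot be read per subset. A gene is said to have risen or fallen where the deposited adjusted p was under 0.05, with the direction taken from the Wald statistic. In bulk samples of sorted cells, a change in the share of cells that carry an mRNA and a change in mRNA per cell cannot be told apart.

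As background, inhibitory members of these families carry tyrosine motifs, called ITIMs, in their cytoplasmic tails. On phosphorylation by SRC-family kinases these recruit the phosphatases SHP-1, SHP-2 or SHIP-1 and dampen activation. Activating relatives lack ITIMs and pair instead with adaptors such as FcRgamma, DAP12 or DAP10. In macrophages, SIRP alpha is best known as the receptor for CD47 that restrains phagocytosis, and it is a target of macrophage checkpoint blockade. SLAM family receptors bind mostly to themselves on neighbouring cells and signal through small SH2 adaptors of the SAP and EAT-2 type.

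In TAM, 7 of the 10 receptor genes rose and none fell. In inflammatory monocytes 3 rose and none fell, and in granulocytes 2 rose and 1 fell. Slamf7 rose in all 3 subsets, Cd84 and Sirpa in TAM and inflammatory monocytes, and Pirb in TAM and granulocytes. Pira2, Cd300a and Cd300lf rose in TAM alone among the calls, Lilr4b fell in granulocytes, and Lilrb4a and Cd200r1 passed in no subset.

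**Figure D1:**
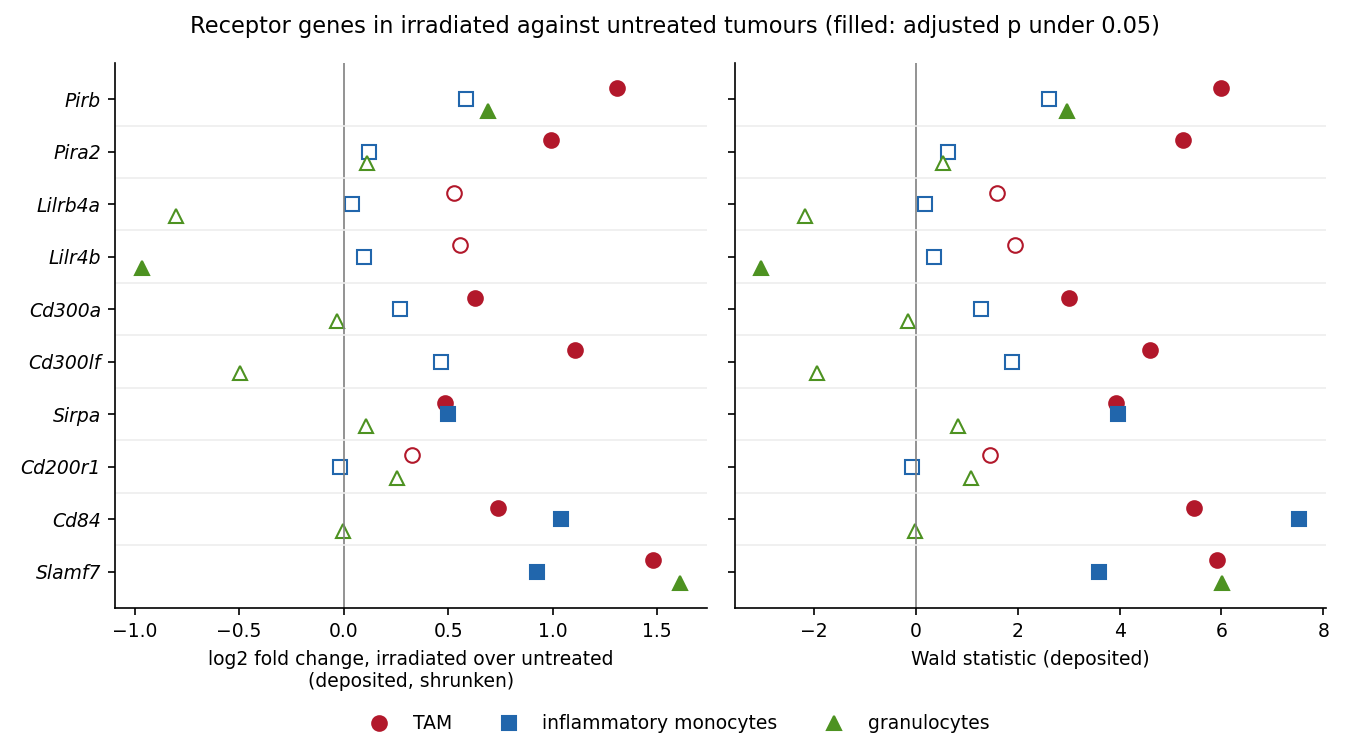
Deposited log2 fold change (left) and Wald statistic (right) of the 10 receptor genes, irradiated over untreated, with 1 symbol per subset. Filled symbols have an adjusted p under 0.05, and all 10 TAM symbols lie above 0.

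Those counts stand against wide changes elsewhere. The genes were chosen with earlier results of these data known, so the contrast with all genes is a description and not a test. Of all genes tested in TAM, 26.4% passed (13.9% rose and 12.5% fell). In inflammatory monocytes 5.9% passed (4.13% rose and 1.77% fell), and in granulocytes 17.2% (7.32% rose and 9.9% fell). The median log2 fold change over the 10 genes was 0.68 for TAM (all genes tested 0.03), 0.37 for inflammatory monocytes (0.02) and 0.05 for granulocytes (-0.03), from the authors' deposited tables. At an unadjusted p under 0.05, 7 rose and 0 fell in TAM, 4 and 0 in inflammatory monocytes, and 2 and 2 in granulocytes. The share of all genes at that cut was not counted, so these counts are not read as a result about the receptors. The authors' test was DESeq2's Wald test. With Wald statistics divided by their robust SD over genes (2.72 in TAM, 1.56 in inflammatory monocytes, 2.09 in granulocytes), 0 of the 10 passed in TAM, 1 in inflammatory monocytes (Cd84) and 0 in granulocytes. Over all genes that scaling left 0 that rose and 0 that fell in TAM and in granulocytes, and 20 that rose and 5 that fell in inflammatory monocytes, so its loss of calls is not particular to the receptors. Where a fold was not shrunken, the fold divided by the Wald statistic is its standard error. For the 7 genes that rose in TAM this ratio lay between 0.12 (Sirpa) and 0.25 (Slamf7) on the log2 scale, computed from the authors' deposited table.

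**Figure D2:**
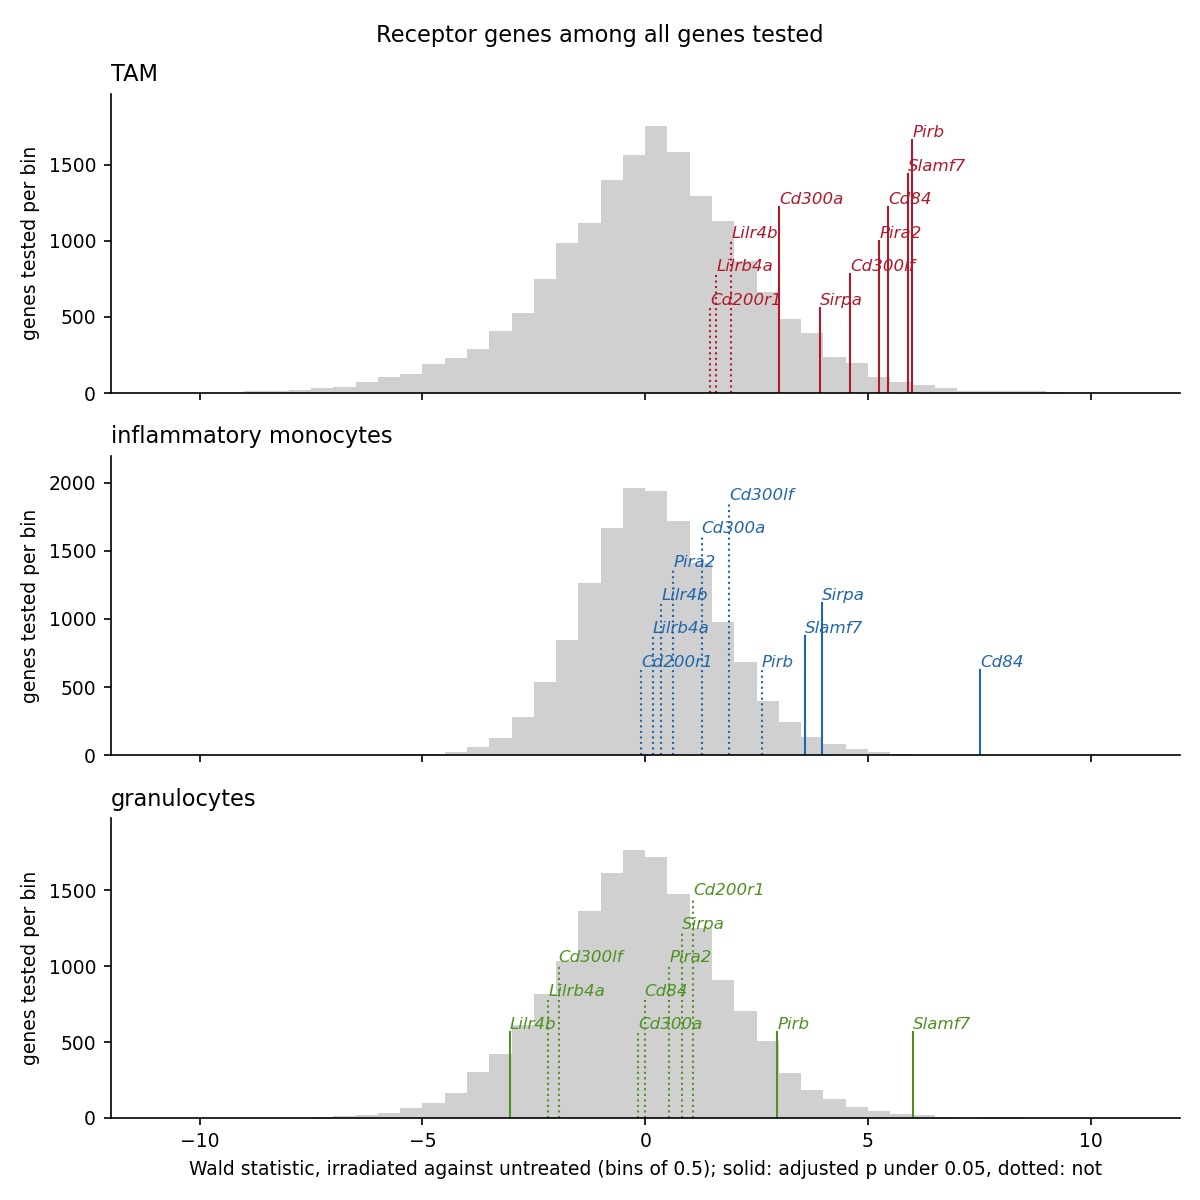
Histograms of the Wald statistic over all genes tested in each subset (grey, bins of 0.5), with the 10 receptor genes as vertical lines. Solid lines have an adjusted p under 0.05, dotted lines do not. Line heights separate the labels and carry no value.

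Pirb encodes the inhibitory receptor PIR-B, which binds MHC class I molecules and recruits SHP-1. The authors' deposited table put its log2 fold change at 1.31 in TAM (Wald statistic 6.00, adjusted p = 9.27e-08, DESeq2). The authors' deposited table gives it 0.69 in granulocytes (2.96, adjusted p = 0.0242). Inflammatory monocytes had 0.58, short of the threshold (adjusted p = 0.0979), in the authors' deposited table. Pira2 encodes an activating counterpart, PIR-A, that binds MHC class I too and signals through FcRgamma. For Pira2 the log2 fold change in TAM was 0.99 (5.25, adjusted p = 3.81e-06) in the authors' deposited table. Outside TAM, Pira2 lay near 0, with 0.12 in inflammatory monocytes (adjusted p = 0.797) and 0.11 in granulocytes (adjusted p = 0.776) in the authors' deposited tables. So Pirb and Pira2, an activating PIR gene among several, both rose in TAM.

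The 2 genes lie in one cluster on chromosome 7, both on the minus strand. In GENCODE M21 transcripts, 20.7% of the distinct 50-base words of Pirb's coding transcripts also occur in transcripts of Pira2, and 22.6% of those of Pira2 occur in Pirb. How the authors assigned reads that fit both genes is not given in the sources used here, so their values may not be independent. Words shared with other Pira genes were not counted, and their part in either value was not tested. Their promoters are near copies as well, with 264 of 328 aligned columns identical, and are shown because both genes rose in TAM. The sequences are from RefSeq, build GRCm38.p6, an earlier build than the GRCm39 of the authors' alignment, and run from 250 bases before to 50 bases after the annotated start. Pirb is at chr7:3720333-3720632 and Pira2 at chr7:3845002-3845301, both read on the minus strand. Capitals mark GAGGAAGT, an ETS-type word of the sort bound by the myeloid factor PU.1, searched on both strands.
Pirb: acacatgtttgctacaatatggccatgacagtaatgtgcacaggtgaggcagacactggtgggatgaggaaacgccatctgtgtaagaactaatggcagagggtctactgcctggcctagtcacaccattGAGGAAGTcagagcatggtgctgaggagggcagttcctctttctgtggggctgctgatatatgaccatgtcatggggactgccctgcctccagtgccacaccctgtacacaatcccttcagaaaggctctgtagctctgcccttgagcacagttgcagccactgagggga
Pira2: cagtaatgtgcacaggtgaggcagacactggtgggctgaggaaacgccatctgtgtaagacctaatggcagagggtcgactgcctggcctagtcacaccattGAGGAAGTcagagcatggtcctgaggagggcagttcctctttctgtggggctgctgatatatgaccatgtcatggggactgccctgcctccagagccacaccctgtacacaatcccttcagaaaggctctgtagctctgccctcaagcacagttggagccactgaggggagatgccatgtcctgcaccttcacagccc
The word begins 120 bases before the annotated start of Pirb and 148 before that of Pira2. Among the 7 of the 10 genes with a RefSeq promoter (Lilrb4a, Sirpa and Cd200r1 had no entry), it also occurred in Cd300lf, at the start itself. Of 32851 mouse promoters of the same length, 3.20% hold it. A match is a description of letters and not a binding site. The interferon-stimulated response word, GAAA repeated after 2 bases, was found in none of the 7, against 3.44% of all promoters.

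Lilrb4a encodes the ITIM receptor gp49B, and its neighbour Lilr4b encodes gp49A, which lacks ITIMs. Both showed the same order of subsets. For TAM the authors' deposited table lists log2 fold changes of 0.53 for Lilrb4a (adjusted p = 0.24) and 0.56 for Lilr4b (adjusted p = 0.141). Inflammatory monocytes gave 0.04 and 0.10 (adjusted p = 0.955 and 0.894) in the authors' deposited table. In granulocytes Lilr4b fell, with -0.96 (Wald statistic -3.04, adjusted p = 0.0204), while Lilrb4a had -0.80 and missed the threshold (-2.18, adjusted p = 0.116) in the authors' deposited table. These genes stand side by side on chromosome 10, and 28.5% of the 50-base words of Lilrb4a's coding transcripts recur in Lilr4b, 24.1% the other way. The part of such shared words in these values was not tested.

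The CD300 receptors sense lipids of dying cells. Cd300a and Cd300lf both encode ITIM receptors that bind phospholipids such as phosphatidylserine. Both rose in TAM, where the authors' deposited table has log2 fold changes of 1.11 for Cd300lf (Wald statistic 4.60, adjusted p = 6.83e-05) and 0.63 for Cd300a (3.01, adjusted p = 0.0138). Inflammatory monocytes had smaller positive values that did not pass, 0.47 for Cd300lf (adjusted p = 0.277) and 0.27 for Cd300a (adjusted p = 0.518), in the authors' deposited table. In granulocytes the authors' deposited table has -0.49 for Cd300lf (-1.95, adjusted p = 0.172) and -0.03 for Cd300a (adjusted p = 0.943). Little sequence is shared here, as 5.22% of Cd300lf's and 1.96% of Cd300a's 50-base words recur in other listed receptor genes.

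Sirpa, the CD47 receptor gene, rose by almost the same amount in both mononuclear subsets. The log2 fold change was 0.48 in TAM (Wald statistic 3.93, adjusted p = 0.00084) and 0.50 in inflammatory monocytes (3.97, adjusted p = 0.00423), against 0.11 in granulocytes (adjusted p = 0.635), in the authors' deposited tables. Cd47 itself, the ligand, rose in all 3 subsets, with 0.87 for TAM, 0.60 for inflammatory monocytes and 0.57 for granulocytes (adjusted p = 1.24e-06, 0.00863 and 0.00927) in the authors' deposited tables. Thrombospondin 1, a secreted ligand of CD47 encoded by Thbs1, had 1.74 in TAM and -0.90 in granulocytes (adjusted p = 3.18e-09 and 0.0151) in the authors' deposited tables. Cd200r1, the inhibitory receptor for CD200, which signals through DOK2 rather than an ITIM, passed in no subset. Its log2 fold changes were 0.33, -0.02 and 0.26 in TAM, inflammatory monocytes and granulocytes (adjusted p = 0.293, 0.978 and 0.513) in the authors' deposited tables. Cd200, its ligand, passed in no subset and had a low mean normalised count of 29.3 in the authors' deposited tables.

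Among the 10 genes, Slamf7 and Cd84 had the largest log2 fold changes that passed outside TAM. SLAMF7 binds itself and couples to EAT-2, and in mice it has been linked to engulfment of haematopoietic tumour cells by macrophages. Slamf7 had log2 fold changes of 1.48 for TAM, 0.92 for inflammatory monocytes and 1.61 for granulocytes in the authors' deposited tables, the last equal to a 3.05-fold rise. Their adjusted p-values were 1.5e-07, 0.012 and 4.36e-07 in the authors' deposited tables. Its fold divided by its Wald statistic was 0.25, 0.26 and 0.27, computed from the authors' deposited tables. Cd84 encodes SLAMF5, another self-binding receptor. Cd84 had 0.74 in TAM (Wald statistic 5.46, adjusted p = 1.46e-06), 1.04 in inflammatory monocytes (7.53, adjusted p = 6.84e-11) and -0.001 in the granulocyte gate (adjusted p = 0.995) in the authors' deposited tables.

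Both SLAM genes sit in one cluster on chromosome 1, Slamf7 on the minus and Cd84 on the plus strand, and no 50-base word of Slamf7's coding transcripts recurs in another listed receptor gene. Their promoters (RefSeq, GRCm38.p6) are shown because these genes had the clearest rises beyond TAM. Cd84 is at chr1:171839447-171839746, plus strand, and Slamf7 at chr1:171648950-171649249, minus strand. Capitals mark TGANTCA, the AP-1 word, which equals its own reverse complement apart from N.
Cd84: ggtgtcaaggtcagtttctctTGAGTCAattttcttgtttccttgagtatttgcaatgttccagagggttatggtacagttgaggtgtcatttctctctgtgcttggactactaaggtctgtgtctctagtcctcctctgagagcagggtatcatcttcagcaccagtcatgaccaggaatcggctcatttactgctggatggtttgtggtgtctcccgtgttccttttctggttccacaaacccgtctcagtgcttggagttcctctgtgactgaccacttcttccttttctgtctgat
Slamf7: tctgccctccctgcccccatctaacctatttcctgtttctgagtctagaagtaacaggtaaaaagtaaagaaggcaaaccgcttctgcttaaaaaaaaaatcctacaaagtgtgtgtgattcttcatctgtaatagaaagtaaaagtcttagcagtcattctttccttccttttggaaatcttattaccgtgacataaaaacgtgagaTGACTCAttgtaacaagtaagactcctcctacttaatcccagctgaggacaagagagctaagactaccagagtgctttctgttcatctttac
It begins 229 bases before the start of Cd84 and 42 before that of Slamf7, and 7.81% of all mouse promoters of this length hold it. None of the other 5 receptor promoters has it, and neither of these 2 holds GAGGAAGT.

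The remaining SLAM genes did not follow Cd84 and Slamf7 as a block. In TAM none of 7 others passed, also at an unadjusted p under 0.05 (DESeq2). In inflammatory monocytes 3 of the 7 rose and 1 fell, and in granulocytes 3 rose and 1 fell. Slamf6, the gene next to Cd84, rose in inflammatory monocytes (log2 fold change 1.25, adjusted p = 0.000166) and granulocytes (1.24, adjusted p = 0.000173), and had 0.37 in TAM (adjusted p = 0.3), in the authors' deposited tables. Ly9, the gene next to Slamf7, rose by 0.69 in inflammatory monocytes and 0.88 in granulocytes (adjusted p = 0.0231 and 0.00117) in the authors' deposited tables. Cd244a, which encodes 2B4, the receptor for CD48, fell in both, with -0.97 and -0.88 (adjusted p = 8.12e-06 and 7.65e-05) in the authors' deposited tables. Its ligand gene Cd48 had 0.47 in granulocytes (adjusted p = 0.0218) in the authors' deposited table. Slamf9 rose by 0.82 in inflammatory monocytes (adjusted p = 0.0211) in the authors' deposited table. Order in the cluster is from RefSeq GRCm38.p6.

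**Figure D3:**
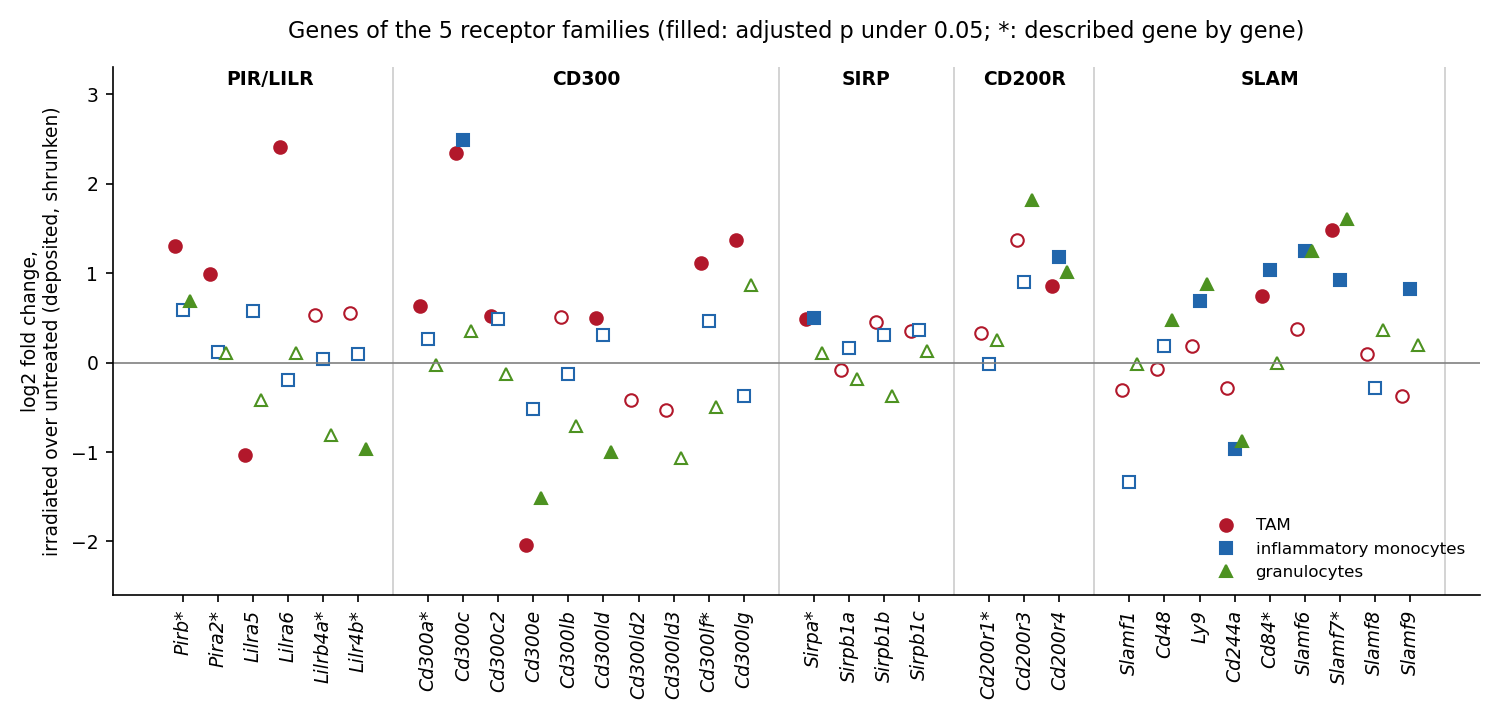
Deposited log2 fold change, irradiated over untreated, of the genes of the 5 receptor families tested in at least 1 subset. Filled symbols have an adjusted p under 0.05. Cd300e lies lowest in TAM at -2.04, Lilra6 at 2.42.

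Other family members were taken from lists of the PIR/LILR, CD300, SIRP and CD200R genes. Of 11 further PIR/LILR genes listed, 2 match a symbol of the tables. By the authors' deposited table, Lilra6 rose in TAM by 2.42 on the log2 scale (adjusted p = 2.44e-08) and Lilra5 fell, with -1.03 (adjusted p = 0.00999). Of Pirb's 50-base words 14.7% recur in Lilra6, and its part in these values was not tested. Of 10 further CD300 genes, 8 were tested in TAM, where 4 rose and 1 fell. Of the 7 tested in granulocytes 0 rose and 2 fell, and at an unadjusted p under 0.05, 0 rose and 3 fell (DESeq2). Cd300ld, an activating receptor, rose in TAM by 0.50 (adjusted p = 0.0198) and fell in granulocytes with -1.0 (adjusted p = 7.28e-06) in the authors' deposited tables. Cd300e fell in both, with -2.04 in TAM and -1.51 in granulocytes (adjusted p = 9.69e-05 and 0.0167) in the authors' deposited tables. Cd300c, with a low mean normalised count of 19.0, had 2.34 in TAM and 2.49 in inflammatory monocytes (adjusted p = 0.00103 and 0.00304) in the authors' deposited tables. Of 3 Sirpb1 genes none passed in any subset, although 2 had a positive effect at an unadjusted p under 0.05 in TAM (DESeq2). Cd200r4, an activating relative of Cd200r1, rose in all 3 subsets, with 0.85, 1.18 and 1.01 in TAM, inflammatory monocytes and granulocytes (adjusted p = 0.0417, 0.0122 and 0.0258) in the authors' deposited tables.

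Of 10 phosphatase and inhibitory adaptor genes, 1 rose and 1 fell in TAM, none passed in inflammatory monocytes (3 rose at an unadjusted p under 0.05, DESeq2), and 1 rose and 1 fell in granulocytes. Ptpn6, which encodes SHP-1, had log2 fold changes of 0.09, 0.30 and 0.13 in TAM, inflammatory monocytes and granulocytes (adjusted p = 0.585, 0.0631 and 0.458) in the authors' deposited tables. Inpp5d, which encodes SHIP-1, fell in granulocytes with -0.36 (adjusted p = 0.0228) in the authors' deposited table. Dok1 rose in granulocytes with 0.59 (adjusted p = 0.000856) in the same table. In TAM, Rasa1 fell with -0.42 and Grb2 rose with 0.27 (adjusted p = 0.00599 and 0.0215) in the authors' deposited table. Of the kinases, Fgr and Syk rose in TAM with 0.93 and 0.77 (adjusted p = 1.91e-09 and 0.00013), and Syk fell in granulocytes with -0.49 (adjusted p = 0.0471), in the authors' deposited tables. The adaptor gene Hcst, which encodes DAP10, rose in TAM (0.98, adjusted p = 1.92e-05) and inflammatory monocytes (0.64, adjusted p = 0.0379) in the authors' deposited tables. Sh2d1b1, the EAT-2 gene to which SLAMF7 couples, fell in TAM with -1.13 (adjusted p = 0.000268) where Slamf7 rose, in the authors' deposited table. Fcer1g and Tyrobp, the adaptors FcRgamma and DAP12, passed in no subset, and their log2 fold changes ran from -0.21 to 0.24 in the authors' deposited tables.

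Whether the effect of irradiation itself differed between subsets was tested as the difference of the 2 Wald statistics divided by the square root of 2. P-values were adjusted by Benjamini-Hochberg over all genes tested in both subsets. This compares effects in units of their standard error, and equals a test of the fold difference only where the standard errors are alike. For Cd300lf the fold divided by the Wald statistic was 0.24 in TAM and 0.25 in granulocytes, for Pira2 0.19 and 0.21, and for Lilr4b 0.29 and 0.32, computed from the authors' deposited tables. For Cd84 it was 0.14 in TAM and 0.14 in inflammatory monocytes, against 0.067 in granulocytes, where it rests on a fold of only -0.001 in the authors' deposited table. This ratio is a standard error only where a fold was not shrunken, and the deposited folds behave as shrunken. Alike standard errors were therefore not shown for any of these genes. Between TAM and granulocytes the effect was higher in TAM for 4 of the 10 genes, beside 7.69% of all genes tested. These were Cd300lf (difference 4.63, adjusted p = 0.000192), Cd84 (3.87, adjusted p = 0.00279), Lilr4b (3.52, adjusted p = 0.00783) and Pira2 (3.34, adjusted p = 0.0129). Between inflammatory monocytes and granulocytes only Cd84 differed among the 10 (5.33, adjusted p = 0.00014), beside 0.807% of all genes. Between TAM and inflammatory monocytes only Pira2 did (3.27, adjusted p = 0.0226), beside 3.74%. A lower effect in the first-named subset was called for 0 of the 10 in each pair, beside 3.81%, 0.214% and 3.39% of all genes. Slamf7 gave -0.07 between TAM and granulocytes (adjusted p = 0.979), and Pirb 2.15 (adjusted p = 0.155), so no difference was shown for them. A stricter test, which needs opposite signs and a small p in both subsets, called 0 of the 10 in any pair, also at an unadjusted p under 0.05. It called few genes at all, 15 of 15679 (0.0957%) for TAM and granulocytes and 0 of 14506 for each of the other pairs, so nothing about the receptors is read from it. The same tumours gave libraries of several subsets, 7 irradiated and 5 untreated for TAM and granulocytes, and the test treats them as independent.

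**Figure D4:**
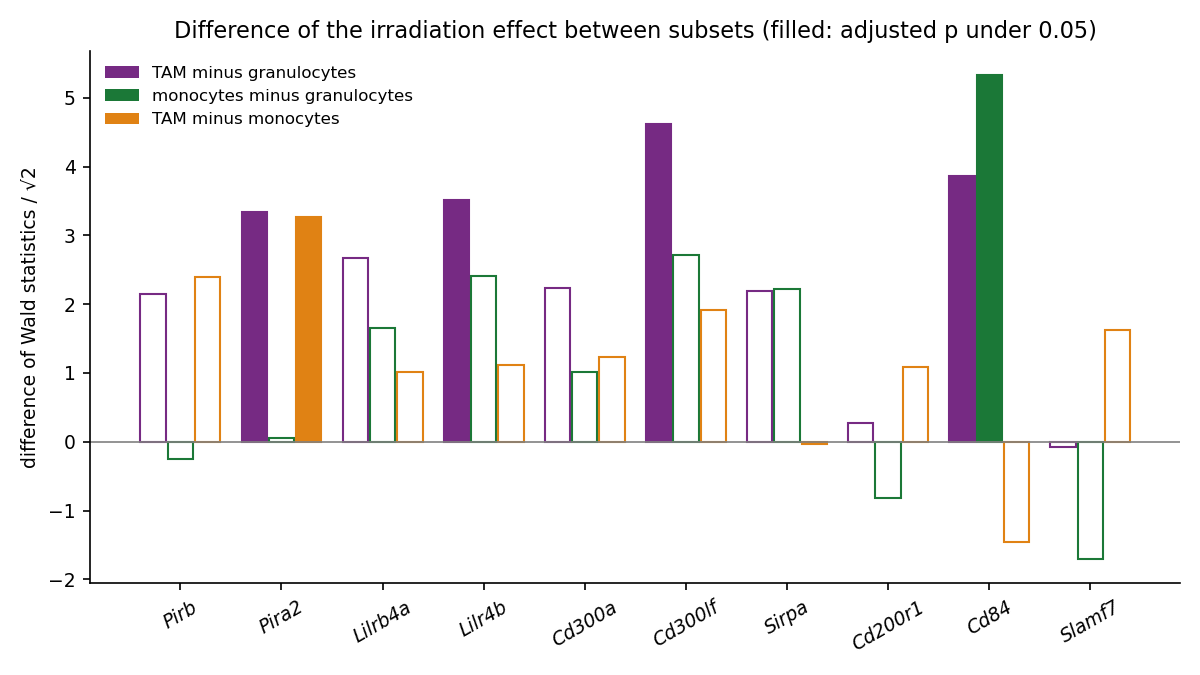
Difference of the Wald statistics of 2 subsets divided by the square root of 2, for each receptor gene and pair of subsets. Filled bars have an adjusted p under 0.05, and bars above 0 mean a higher effect in the first-named subset. Cd84 has filled bars against granulocytes from both other subsets.

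Across all libraries, mean normalised counts per kb of annotated exon sequence put Lilr4b first (7594), followed by Sirpa (4932), Cd300lf (4209), Lilrb4a (2508), Pirb (2506), Cd300a (1115), Cd84 (716), Cd200r1 (302), Slamf7 (249) and Pira2 (170). The counts are the authors' means from the deposited tables and the lengths are from GENCODE M21. All 3 tables repeat the same mean for a gene, so it describes no single subset, and which neighbours in this order differ cannot be said without a spread.

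Markers of several cell types moved in the same comparisons, and their part in the receptor values was not tested. In TAM, 5 of 8 classical monocyte markers, 8 of 10 neutrophil markers and 4 of 5 tested eosinophil markers rose, 2 of 10 macrophage markers rose, and 4 of 8 dendritic cell markers fell. The neutrophil markers' median in TAM was -0.21 for the log2 fold change and 3.41 for the Wald statistic in the authors' deposited table, so the medians differ in sign. Some of these markers had both values above 0, and others had a fold below 0 with a Wald statistic above 0. For the 10 receptor genes, fold and Wald statistic had the same sign in every subset. In inflammatory monocytes, where Cd84, Sirpa and Slamf7 rose, 7 of 10 macrophage and 6 of 10 neutrophil markers rose. In granulocytes 4 of 10 macrophage and 4 of 8 classical monocyte markers rose, and 1 of 10 neutrophil markers did. T and NK cell markers, of types that also carry SLAM receptors, fell in 2 of 9 cases in TAM and 2 of 9 in granulocytes, and none rose, also at an unadjusted p under 0.05 (DESeq2). Of 8 B and plasma cell markers 1 rose in inflammatory monocytes and 1 in granulocytes, and the plasma cell gene Tnfrsf17 had a mean normalised count of 0.14 over all libraries in the authors' deposited tables. At an unadjusted p under 0.05, 2 of 6 tested B and plasma cell markers rose in TAM (DESeq2). In inflammatory monocytes 2 of 5 did, and in granulocytes 5 of 6. Of 6 tumour and epithelial cell markers 1 rose in TAM and none passed in the other subsets. With the cut at an unadjusted p under 0.05, 5 of these 6 rose in TAM (DESeq2), where their median log2 fold change was 1.49. Inflammatory monocytes had 1 that rose at that cut, while granulocytes had 0.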

How the data were processed

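The files are the authors' 3 deposited comparison tables, irradiated against untreated within each sorted subset. Per the labels' protocols, RNA was extracted with an RNeasy kit and libraries were made with Nextera XT, a kit that does not keep strand. Per the submitters' processing notes, the tools were DESeq2 1.28.1 in R 4.0.2, STAR 2.7.6a and fastp 0.20.1, with build mm39 (GRCm39). Which counter and annotation were used is not given in the sources. The authors' deposited mean normalised count is a signal over all libraries, identical in the 3 tables. The authors' log2 fold changes, deposited as irradiated over untreated, behave as shrunken. The score deposited by the authors is the Wald statistic, and its p-value and adjusted p-value are deposited beside it, with none for genes of low mean. P-values rest on a spread between libraries. As the mean is identical in the 3 comparisons, the fit may have been made jointly over all 41 libraries. The spread would then be pooled over subsets, and the same tumours gave libraries of several subsets. The design of the fit is not given in the sources.

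Calls use an adjusted p under 0.05 over all genes tested (16851 in TAM, 14506 in inflammatory monocytes, 15679 in granulocytes), signed by the Wald statistic. The planned comparison of subsets asked for opposite signs, with the larger p adjusted by Benjamini-Hochberg. The difference of Wald statistics was chosen after seeing the tables, because shrunken folds give no standard error. The genes and all lists were chosen with earlier results of these data known. All 10 receptor genes are named. The rule for each family or signalling list was up to 4 further genes that passed, by smallest p. Where none did, it was up to 2 of highest mean count. Not every gene this rule selects is named, and Cd48 was named ahead of Angpt2, a listed ligand gene with a smaller p. Ptpn6, Fcer1g, Tyrobp, Cd200 and Tnfrsf17 fall outside that rule and were named after their values were seen. Shared 50-base words used GENCODE M21 transcripts and promoters RefSeq GRCm38.p6, not the authors' build. Protein sequences were not used here.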

Additional observations from a re-analysis of the deposited data

Results flagged for a closer look

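Results are given here because the effect of irradiation differed between subsets by the difference of Wald statistics, adjusted by Benjamini-Hochberg over all genes tested in both. Between TAM and granulocytes the effect was higher in TAM for Cd300lf (adjusted p = 0.000192), Cd84 (adjusted p = 0.00279), Lilr4b (adjusted p = 0.00783) and Pira2 (adjusted p = 0.0129). Between inflammatory monocytes and granulocytes it was higher in inflammatory monocytes for Cd84 (adjusted p = 0.00014). Between TAM and inflammatory monocytes it was higher in TAM for Pira2 (adjusted p = 0.0226). Direction in single libraries cannot be counted, since the tables hold none.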

How the results depend on the processing

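Of the 10 receptor genes, a log2 fold change of at least 1 beside the call left 3 that rose in TAM (Pirb, Slamf7 and Cd300lf), 1 in inflammatory monocytes (Cd84), and in granulocytes 1 that rose (Slamf7) and 0 that fell. Over all genes tested that cut left 903 of 16851 that rose in TAM and 292 of 14506 in inflammatory monocytes. Of 15679 in granulocytes it left 413 that rose and 745 that fell. At an adjusted p under 0.01, granulocytes kept 1 that rose and 0 that fell, and the TAM minus inflammatory monocyte difference called 0. Over all genes that threshold kept 571 that rose and 849 that fell in granulocytes, and the same difference called 440 of 14506. Dividing Wald statistics by their robust SD over genes (2.72 in TAM, 1.56 in inflammatory monocytes, 2.09 in granulocytes), which treats the bulk of genes as unchanged, left 0 that rose in TAM, 1 in inflammatory monocytes, and 0 that rose and 0 that fell in granulocytes. Over all genes it left 0 called in TAM and 0 in granulocytes, and 20 that rose and 5 that fell in inflammatory monocytes, so the loss is not a result about these receptors. The same scaling of the differences called 0 in TAM minus granulocytes, 0 in inflammatory monocytes minus granulocytes and 0 in TAM minus inflammatory monocytes, where over all genes it called 2, 5 and 1. The cause was not tested. Of the single-gene values under 8 alternatives, 215 kept their side of the threshold, 24 lost the call and 1 gained it (Pirb in inflammatory monocytes at an adjusted p under 0.1), and none reversed. No paired analysis was possible because the tables hold no library values and irradiated and untreated tumours share no numbers. Leaving out single libraries was not run for the first reason.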
